A study of Mus musculus with 6 samples.

Results

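The protein components of the cytosolic ribosome were followed in muscle stem cells of mice designed to lose Opa1 (KO) and of their Cre-negative controls (WT). The members are 42 genes taken by symbol from a named list, 26 of the large subunit and 16 of the small subunit, out of 49652 gene rows in the count files. All 42 were found and all 42 passed the filter on low counts, which kept 18832 genes. No cut on a measured value defined the list, but it was chosen with earlier results of these data known.

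Opa1 encodes a dynamin-like GTPase of the inner mitochondrial membrane, and the series asks what its loss does to quiescent muscle stem cells. RNA-seq was run on 6 libraries of stem cells sorted from the hindlimb, 3 labelled WT and 3 labelled KO. All mice belonged to the OPA1-Pax7-CreERT2 design, were 8 to 10 weeks old and uninjured, and received tamoxifen by gavage on 5 days, with cells taken 3 days afterwards. WT mice were Cre negative and KO mice Cre positive. CreERT2 is a recombinase that tamoxifen activates, here under Pax7, a gene of muscle stem cells, so only Pax7-expressing cells are targeted. No group carries Cre without the Opa1 deletion, so an effect of Cre cannot be told apart from one of Opa1. The sort took cells positive for a-integrin-7 and VCAM and negative for Sca1, CD45 and CD31. How many animals went into each library is not given, so p-values measure the spread between these libraries, which may be technical.

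Ribosomal proteins bind ribosomal RNA in the nucleolus and form the small subunit, which decodes mRNA, and the large subunit, which joins amino acids. Cells need them in matched amounts, and most of their mRNAs begin with a run of pyrimidines (a terminal oligopyrimidine tract) through which the kinase mTOR controls their translation via Larp1. Quiescent muscle stem cells keep translation low and raise it when they activate. An mRNA level does not report translation, so nothing here measures protein synthesis.

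To show the sequence that these genes share, tracts were searched on the sense strand from 50 bases before to 50 after the start of each RefSeq transcript (GRCm38.p6). A tract was a C followed only by C or T, with at least 8 bases in all. Of the 42 members, 34 matched a RefSeq promoter entry, and 28 of these (82.4%) held such a tract, against 31.5% of 27025 genes. The following windows of 30 bases belong to members described further on, with the tract in capitals.
Rpl4, chr9:64173362-64173391, plus strand: tgacaagtCTTTCCTTTTCCTgtgggagca
Rpl28, chr7:4792955-4792984, plus strand: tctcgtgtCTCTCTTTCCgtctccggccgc
Rpl38, chr11:114668572-114668601, plus strand: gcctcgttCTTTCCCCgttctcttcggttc
Rplp2, chr7:141447639-141447668, plus strand: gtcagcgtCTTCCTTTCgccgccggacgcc
Rps6, chr4:86857347-86857376, minus strand: aagtcgggCCTCTTTTTCgtgacgcctccc
Rps9, chr7:3704028-3704057, plus strand: cgccttgtCTCTCTTTgtctcgggcctgag
Rps27, chr3:90213629-90213658, minus strand: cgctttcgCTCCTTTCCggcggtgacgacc
In Rpl38 the tract began exactly at the annotated start, in Rpl28 and Rps27 2 bases before it, and in Rpl4 17 bases before it. Most windows printed have a tract close to the start, which does not hold for all members. Counted from the start, with negative values before it, the nearest tract began at -42 in Rpl27, 25 in Rps15, 17 in Rpl10a and -16 in Rpl13. The search took a tract anywhere in its window, so a match need not lie where the mRNA begins. Rpl23, Rpl24, Rplp0, Rps3, Rps4x and Rps28 had an entry but no such tract in the window. The core CTTTCC, which can lie inside a tract, occurred on the sense strand of the same window in 12 of 34 members (35.3%) and in 5.43% of all genes. The ETS-type motif CCGGAAG, searched on both strands of the 300 bases from 250 before to 50 after the start, occurred in 12 of 34 (35.3%), in 9.93% of all genes and in 18.6% of the 11497 tested genes with an entry. The TATA motif TATAAA, searched on the sense strand of those 300 bases, occurred in 3 of 34 (8.82%), namely Rplp0, Rps2 and Rps28, in 9.77% of all genes and in 5.65% of the tested genes with an entry. A match of letters is a description and not a site of binding.

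Gene counts per library ran from 41410136 to 56606886. Levels are given as normalised read counts (CPM, the reads of a gene relative to its library total after scaling between libraries), in the order of replicates 1 to 3. Opa1 had 68.2, 31.4 and 68.8 CPM in the WT libraries and 17.5, 34.4 and 27.1 CPM in the KO libraries. Because replicate 2 of WT had an Opa1 level between those of KO libraries, it is named here as the library labelled WT replicate 2. The Opa1 log2 fold change, KO minus WT, was -1.09 ± 0.37 (SE), and its adjusted p was 1.00 by the edgeR quasi-likelihood test with Benjamini-Hochberg adjustment over all genes. Stem cell markers summed to 8274 to 11629 CPM in WT and 8023 to 8980 CPM in KO. Summed markers of other cells were 108 to 175 CPM in WT and 100.1 to 168 CPM in KO for 8 endothelial genes, 890.2 to 1380.4 and 716 to 913 CPM for 7 fibro-adipogenic genes, 167 to 566 and 183 to 440 CPM for 8 genes of mature fibres, and 6.59 to 10.9 and 4.83 to 13.8 CPM for 8 leukocyte genes. Ptprc, which encodes CD45, was at 0 to 0.651 CPM. A sum can rest on a few genes of its list. Pdgfra, a marker of fibro-adipogenic cells, had only 0.024 to 2.56 CPM over the libraries. By mean log2 CPM the endothelial genes stood at 3.36, 3.61 and 0.40 (WT) against 1.98, 2.76 and 3.50 (KO). Cdh5, an endothelial marker, was lowest in WT replicate 3, at 0.094 CPM against 2.31 to 6.95 CPM elsewhere. The part of other cell types in any result was not tested.

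Ribosomal protein mRNA took a similar part of the counts in every library, and the groups did not separate. The 42 members held 3.77%, 3.41% and 3.76% of gene counts in WT, and in KO they held 3.67%, 3.65% and 3.36%. The groups overlapped, with the lowest shares in KO replicate 3 and in the library labelled WT replicate 2. The mean share was 3.65% ± 0.206 (SD, n = 3) in WT and 3.56% ± 0.171 (SD, n = 3) in KO, a difference of -0.0908 percentage points, smaller than the spread within either group (two-sided exact permutation test, p = 0.5, where 0.1 is the smallest p that 3 against 3 allows). Without KO replicate 3 the difference was 0.0078 points (p = 1.0, exact permutation test), and without the library labelled WT replicate 2 it was -0.209 points (p = 0.3, exact permutation test). In bulk samples, less RNA per cell and fewer cells of a type cannot be told apart, and a share of counts does not measure RNA per cell. With the other 37 cytosolic ribosomal protein genes added, the share was 5.15% to 5.70% in WT and 5.01% to 5.57% in KO.

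**Figure D1:**
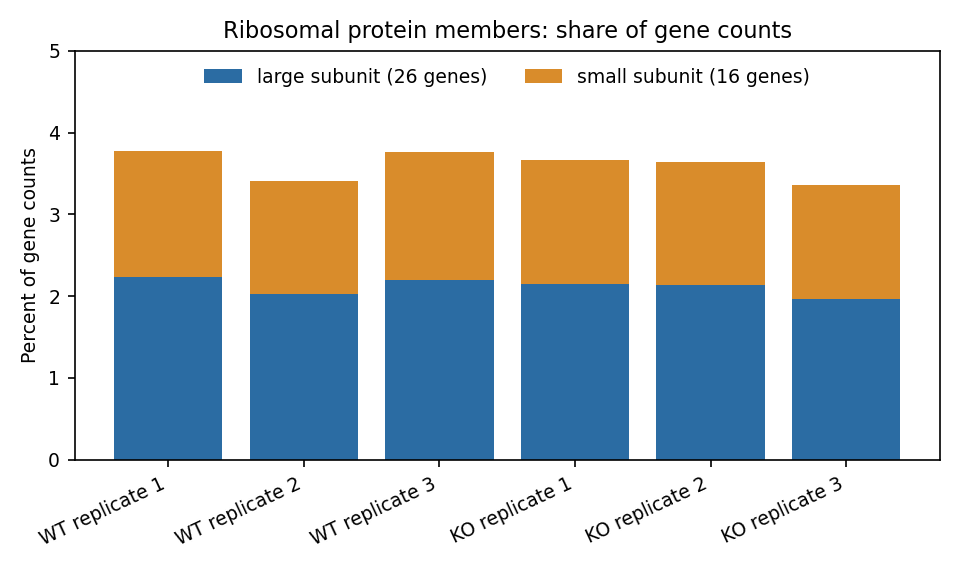
Bars give the percent of all gene counts held by the 26 large-subunit and the 16 small-subunit members in each library, stacked from 0. The totals lie between 3.36% and 3.77%, with KO replicate 3 and the library labelled WT replicate 2 lowest and no separation of KO from WT.

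The 2 subunits were then set against each other. Large-subunit members held 2.23%, 2.02% and 2.19% of gene counts in WT and 2.15%, 2.14% and 1.96% in KO. Small-subunit members held 1.54%, 1.39% and 1.57% in WT against 1.51%, 1.51% and 1.40% in KO. Both subunits thus had their lowest shares in the same 2 libraries. As a measure of balance, the mean log2 CPM of the large-subunit members minus that of the small-subunit members was -0.38, -0.38 and -0.43 in WT against -0.39, -0.41 and -0.46 in KO. Its value says nothing of the number of subunits, because the genes differ in length, but gene length cancels between libraries. The means were -0.40 ± 0.03 (SD, n = 3) and -0.42 ± 0.03 (SD, n = 3), a difference of -0.02 that lay within the spread of the overlapping groups (two-sided exact permutation test, p = 0.5). The balance was lower in KO in 3 of 3 libraries set against the WT library of the same replicate number, by differences of -0.016, -0.026 and -0.026, though the labels do not say that a number marks a shared animal, litter or day. This and 5 further comparisons of 1 value per library, given here and further on, all had an adjusted p of 1.0 (exact permutation tests, Benjamini-Hochberg over the 6).

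No member was called different between KO and WT. By the edgeR quasi-likelihood test 0 of 42 members had an adjusted p under 0.05 and 0 of 42 an unadjusted p under 0.05; over all genes tested these shares were 0% and 2.09%. DESeq2 called 0.106% of all genes and limma voom 0%, and neither called a member. Member log2 fold changes ran from -0.13 for Rpl28 to 0.14 for Rps28, with a median of -0.04 beside 0.01 over all genes. They were above 0 for 14 members and below 0 for 28, so 33.3% were above 0 where 51% of all genes were. The large subunit had 8 above and 18 below, with a median of -0.04, and the small subunit 6 above and 10 below, with a median of -0.02. The sign of the median rested on single libraries: with WT replicate 1 left out it was 0.01, and with KO replicate 3 left out 0.02. Every 95% interval included 0, and all 42 lay between -0.58 and 0.53, so that a member's difference beyond 1.499-fold lower or 1.449-fold higher in KO fell outside its interval.

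**Figure D2:**
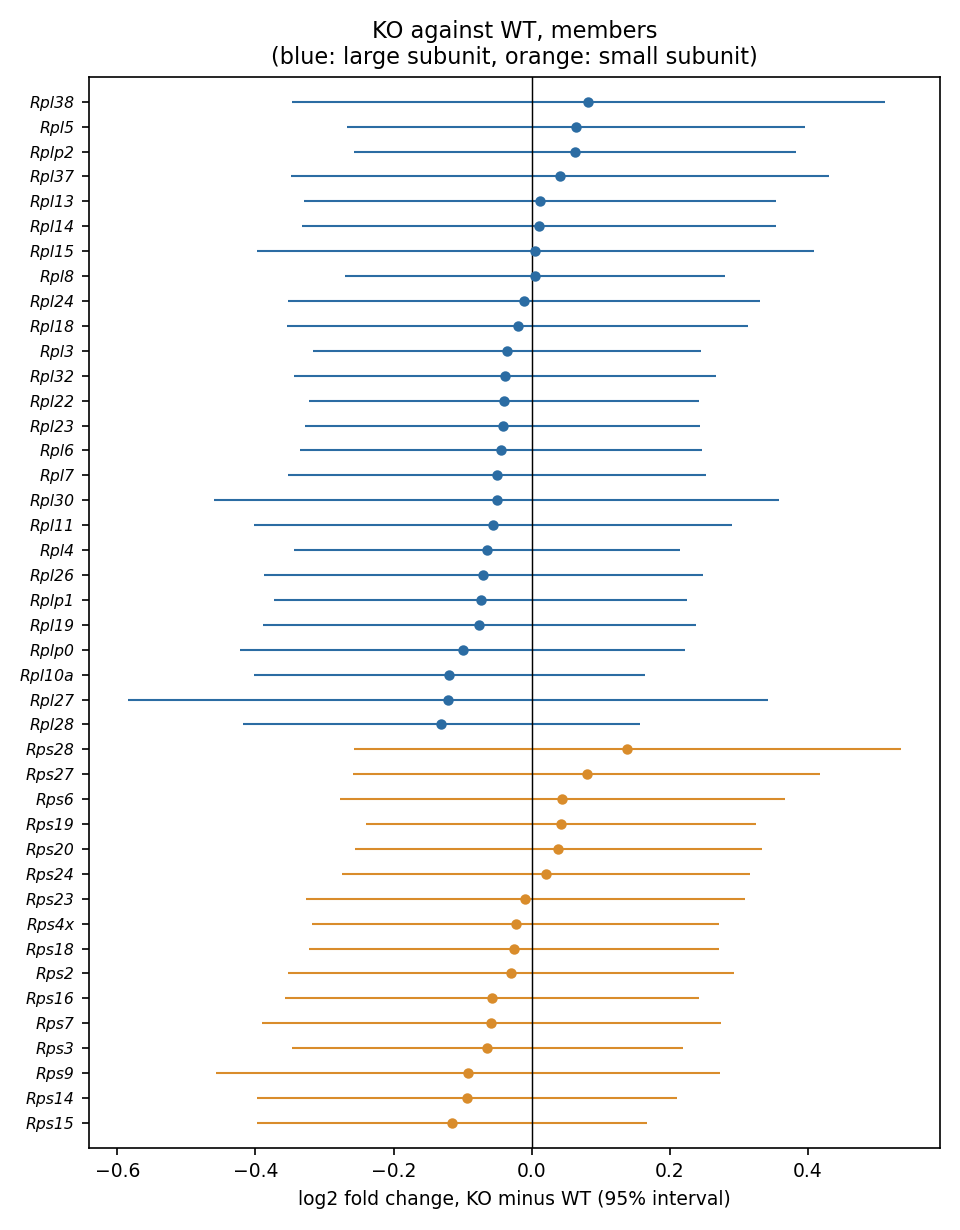
Points give the log2 fold change, KO minus WT, of each member, with 95% intervals from the edgeR fit of 3 against 3 libraries; large-subunit members are blue and small-subunit members orange. Point estimates run from -0.13 (Rpl28) to 0.14 (Rps28) and every interval crosses 0.

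The members varied little beside other genes. Their median within-group SD was 0.12 on the log2 scale, from 0.02 for Rpl4 to 0.26 for Rpl27, where the median was 0.43 over all genes and 0.21 over the 1726 genes at least as abundant as the lowest member. Their median absolute log2 fold change was 0.05, against 0.20 over all genes and 0.09 over those 1726. The highest library exceeded the lowest by 1.07-fold for Rpl4 and by 1.56-fold for Rpl27, with a median of 1.23-fold over the members. Each member had 5249 to 190716 counts per library, and 39 of the 42 ranked among the 1000 most abundant genes. The 1726 genes were thus not matched to the members in abundance, and the part of abundance in the smaller spread was not tested.

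**Figure D3:**
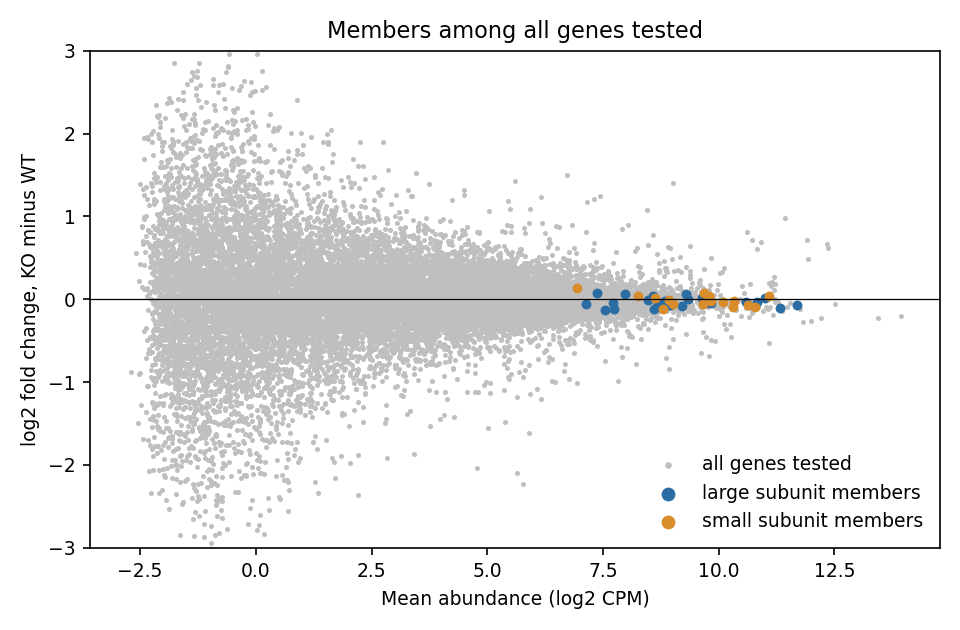
Each grey point is 1 of 18832 genes, by mean abundance in log2 CPM and log2 fold change, KO minus WT; members are drawn in blue (large subunit) and orange (small subunit), and 75 genes beyond 3 in either direction lie outside the axis. The members sit at the abundant end, between -0.13 and 0.14.

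Rpl32, Rpl13 and Rplp0 were the most abundant large-subunit members per kilobase of coding sequence, at 4497, 3239 and 2706 CPM per kilobase over all libraries. Rps14, Rps19 and Rps27 led the small subunit, at 3888, 3420 and 3243 CPM per kilobase. By the length of all annotated exons the leaders were Rpl32, Rpl4 and Rplp0, and Rps27, Rps14 and Rps15, so the order depends on the length used. These levels are uncertain for another reason. Ribosomal protein genes have many processed pseudogenes, and reads that fit several places were not counted.

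Rpl32, a large-subunit protein, had 1973, 1658 and 1905 CPM in the WT libraries and 1845, 1797 and 1749 CPM in the KO libraries. Rpl13, another, had 2273, 1938 and 1914 CPM in the WT libraries and 2147, 2204 and 1827 CPM in the KO libraries. For both genes the groups overlapped, with log2 fold changes of -0.04 ± 0.13 and 0.01 ± 0.14 (SE). Rps19, the gene most often mutated in Diamond-Blackfan anaemia, a red cell failure, had 2219, 2047 and 2163 CPM in the WT libraries and 2240, 2241 and 2142 CPM in the KO libraries, again with overlap and a log2 fold change of 0.04 ± 0.12 (SE). Rps14, whose loss of 1 copy also impairs red cell formation in people, had 1798, 1664 and 1992 CPM in the WT libraries and 1710, 1742 and 1661 CPM in the KO libraries. Its highest library was WT replicate 3 and its lowest KO replicate 3, and the log2 fold change was -0.09 ± 0.13 (SE).

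Rplp0, Rplp1 and Rplp2 form the stalk of the large subunit, which recruits the GTPases that drive initiation and elongation. Rplp0 (chromosome 5, 115559467 to 115563727) had 2692, 2365 and 2932 CPM in the WT libraries and 2577, 2397 and 2479 CPM in the KO libraries. Rplp1 had 523, 454 and 552 CPM in the WT libraries and 499, 485 and 468 CPM in the KO libraries. Both were lowest in the library labelled WT replicate 2 and highest in WT replicate 3, so WT spanned the whole KO range. Rplp2 had 280.5, 228 and 233 CPM in the WT libraries and 273, 263 and 239 CPM in the KO libraries, also overlapping. Their log2 fold changes were -0.10, -0.07 and 0.06, in that order. The mean log2 CPM of the stalk genes minus that of the other large-subunit members was 0.32 ± 0.07 (SD, n = 3) in WT and 0.32 ± 0.09 (SD, n = 3) in KO (two-sided exact permutation test, p = 1.0).

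Rpl5 and Rpl11 enter the large subunit together with the smallest ribosomal RNA, and outside the ribosome they bind and inhibit Mdm2, the ubiquitin ligase that degrades the tumour suppressor p53. Rpl5 had 632, 627 and 575 CPM in the WT libraries and 613, 733 and 570.2 CPM in the KO libraries. Rpl11 had 461, 406 and 391 CPM in the WT libraries and 449.5, 414 and 346 CPM in the KO libraries. The groups overlapped for both, with KO replicate 3 the lowest library of each, and the log2 fold changes were 0.06 ± 0.14 and -0.06 ± 0.15 (SE). The difference of Rpl5 rested on KO replicate 2, its highest library, since without it the log2 fold change was -0.06. Mdm2 itself had 59.7, 71.6 and 58.6 CPM in the WT libraries and 82.3, 71.3 and 77.3 CPM in the KO libraries, a log2 fold change of 0.28 ± 0.14 (SE), and only KO replicate 2 overlapped with WT, at the level of the library labelled WT replicate 2.

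Rps6 is phosphorylated by S6 kinase when mTOR signals nutrients and growth. Its mRNA stood at 943, 807 and 860.4 CPM in the WT libraries and 932, 961 and 799 CPM in the KO libraries, with KO replicate 3 and the library labelled WT replicate 2 lowest and a log2 fold change of 0.04 ± 0.14 (SE). Rps4x, the X-linked member, had 911, 906 and 965 CPM in the WT libraries and 932, 975 and 831 CPM in the KO libraries, and its groups overlapped too, at a log2 fold change of -0.02 ± 0.12 (SE).

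Among the members with the lowest log2 fold changes, Rpl28, a large-subunit protein without a bacterial counterpart, had 201, 193 and 196 CPM in the WT libraries and 195, 182 and 162 CPM in the KO libraries. Its KO mean was 91.3% of the WT mean, KO replicate 1 lay inside the WT range, and the log2 fold change was -0.13 ± 0.12 (SE), the adjusted p being 1.00 by edgeR as for every member. Rpl10a, a protein of the flexible stalk opposite the P proteins, had 412, 374 and 425 CPM in the WT libraries and 383, 383 and 349 CPM in the KO libraries, a log2 fold change of -0.12 ± 0.12 (SE). Rps15, needed for the export of the small subunit from the nucleus, had 485, 426 and 483 CPM in the WT libraries and 445, 430 and 413 CPM in the KO libraries, a log2 fold change of -0.11 ± 0.12 (SE). In both genes the library labelled WT replicate 2 fell among the KO libraries. Rps9, which lines the channel where mRNA enters, had 1250, 1182 and 1473 CPM in the WT libraries and 1396, 1121 and 1147 CPM in the KO libraries, which overlapped, at a log2 fold change of -0.09 ± 0.15 (SE). Rpl27, the most variable member, had 248, 198 and 218 CPM in the WT libraries and 260.2, 184 and 167 CPM in the KO libraries. KO thus held both its highest and its lowest libraries, and the log2 fold change of -0.12 ± 0.20 (SE) became 0.00 without KO replicate 3 and -0.34 without KO replicate 1.

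Among those with the highest log2 fold changes, Rps28 (chromosome 17, 33819027 to 33824562), one of the smallest ribosomal proteins, had 136, 109.6 and 107 CPM in the WT libraries and 145, 136 and 107 CPM in the KO libraries. Its log2 fold change was 0.14 ± 0.17 (SE), with KO replicate 3 as low as WT replicate 3. Rpl38, whose loss in mice alters the body plan through translation of Hox mRNAs, had 188, 145 and 150.1 CPM in the WT libraries and 200.1, 173 and 138 CPM in the KO libraries, a log2 fold change of 0.08 ± 0.18 (SE). Rps27, a zinc-finger protein of the small subunit, had 802, 844 and 738 CPM in the WT libraries and 804, 962 and 753 CPM in the KO libraries, a log2 fold change of 0.08 ± 0.14 (SE). KO replicate 2 was its highest library, and the other KO libraries lay within the WT range.

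Rpl4, whose extension lines the tunnel through which the new protein leaves, was the only member whose groups did not overlap. It was singled out after its values were seen. Rpl4 (chromosome 9, 64173375 to 64178666) had 3371, 3387 and 3365 CPM in the WT libraries and 3299, 3206 and 3172 CPM in the KO libraries. The KO mean was 95.6% of the WT mean, and the log2 fold change of -0.06 ± 0.12 (SE) did not pass the edgeR test (adjusted p = 1.00). Of 42 members 1 had every KO library below every WT library and 0 the reverse, where 3.12% and 3.43% of all genes did (6.55% in either direction), so the count of 1 is not above the background.

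Members moved together in part of the libraries, in both groups. For each gene the log2 CPM in a library was compared with the gene's mean over the 6 libraries. In KO replicate 3 all 42 members were below their own mean, by 0.14 on average, and in the library labelled WT replicate 2 36 of 42 were, by 0.07 on average. In WT replicate 1 36 members were above their mean, in WT replicate 3 25, in KO replicate 1 32 and in KO replicate 2 26. WT replicate 3 and KO replicate 2 showed little common shift, with mean deviations of 0.025 and 0.029 and SDs over the members of 0.098 and 0.085. There 47.8% and 48.5% of all genes were below their own mean. Of all genes tested, 46.5% were below their own mean in KO replicate 3 and 48.9% in the library labelled WT replicate 2, the extremes of the 6 libraries. The lowest library of a member was KO replicate 3 for 26 genes and the library labelled WT replicate 2 for 10. Together these make 85.7% of the members, where 31.8% of all genes and 36.1% of the 1726 abundant genes had their lowest library there.

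**Figure D4:**
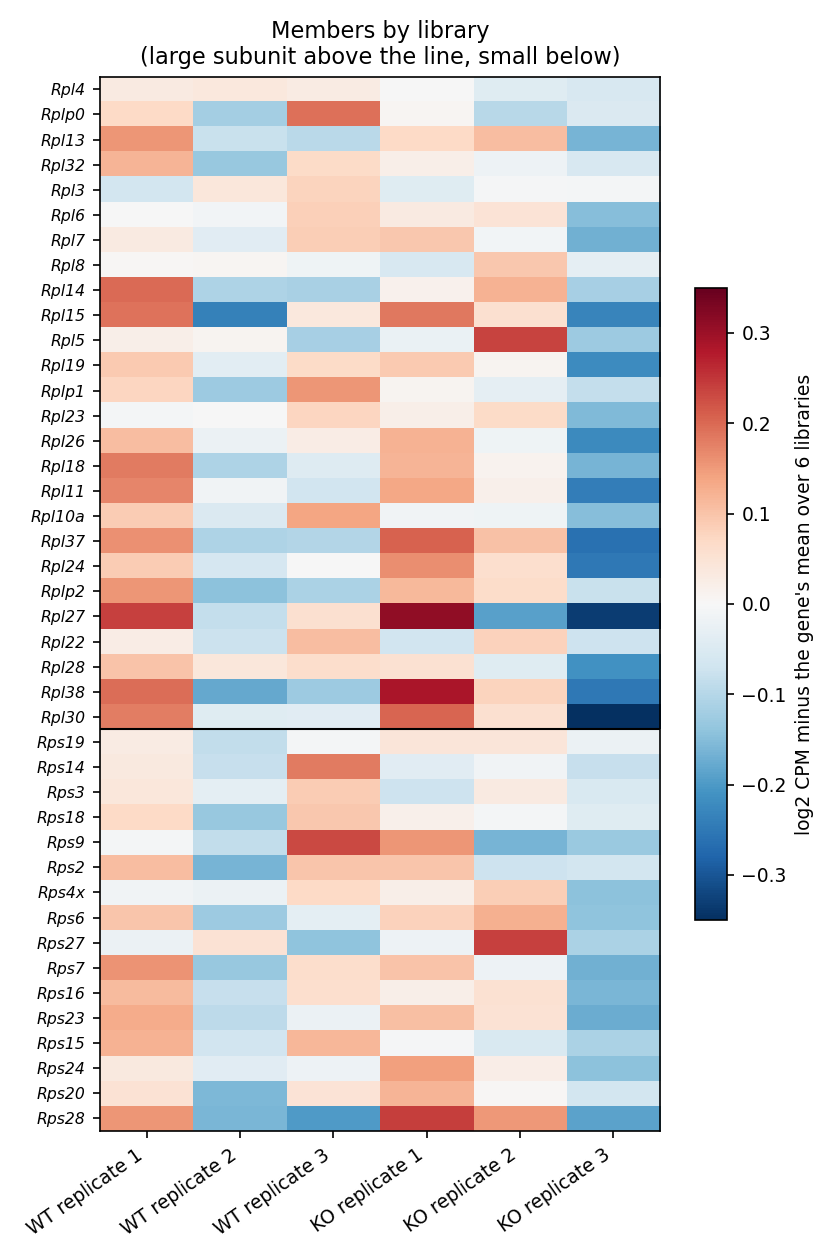
Each cell gives the log2 CPM of a member in 1 library minus its mean over the 6 libraries, from blue (lower) to red (higher), with colours saturating at 0.35; members are ordered by mean CPM within each subunit. The column of KO replicate 3 is blue throughout and that of the library labelled WT replicate 2 mostly so, while columns of both groups are red.

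Several measures stood apart in those 2 libraries or in part of the libraries. The library labelled WT replicate 2 and KO replicate 3 had the highest summed markers of mature fibres, at 566 and 440 CPM against 167 to 260.2 CPM elsewhere. Reads outside any gene feature made up 16.3% and 17.0% of their reads, against 11.2% to 15.5% elsewhere. The mean log2 CPM of 24 cell cycle genes was 1.69 and 2.34 in them and 2.69 in KO replicate 2, against 4.70 to 5.77 in the other 3 libraries. Immediate early genes, which dissociation of tissue can induce, split the libraries in the same way: their mean log2 CPM was 8.56 to 8.78 in these 3 and 6.05 to 7.13 in the others. KO replicate 2 had few cell cycle transcripts and many immediate early ones, and members were on average 0.03 above their mean there. As single genes, Mki67, a marker of cycling cells, had 34.3, 1.59 and 38.1 CPM in the WT libraries and 78.6, 3.18 and 0.652 CPM in the KO libraries. Fos, an immediate early gene, had 3440, 7266 and 1365 CPM in the WT libraries and 2970.1, 8189 and 7987 CPM in the KO libraries. Both genes overlapped between the groups, as did Pax7, at 252 to 398 CPM in WT and 325 to 453 CPM in KO. The part of these measures in the members' levels was not tested. The 21 members with at most 471 coding bases deviated by -0.16 in KO replicate 3 and the 21 longer ones by -0.12. In the same order, the values were 0.10 and 0.08 in WT replicate 1 and 0.10 and 0.05 in KO replicate 1. They were -0.08 and -0.06 in the library labelled WT replicate 2, 0.01 and 0.04 in WT replicate 3, and 0.03 and 0.03 in KO replicate 2. A part of length in the members' levels was not tested.

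A second pattern concerned the order of members within a library. After the mean deviation of all members was removed from each library, Rplp0 was higher by 0.17 in WT replicate 3 and by 0.09 in KO replicate 3, and Rps14 by 0.16 and 0.06. In the same libraries Rpl38 was lower by 0.15 and 0.11 and Rpl37 lower by 0.13 and 0.12. Rpl30 was lower by 0.06 and 0.21. These genes were chosen after their values were seen. WT replicate 3 and KO replicate 3 also had the most reads in rows of ribosomal protein pseudogenes, 7.07 and 7.11 per 100 member reads against 5.86 to 6.13 elsewhere. Their reads with more than 1 alignment were the fewest, at 16.2% and 14.8% against 18.4% to 24.6%. Whether these shares have a part in the order of the members was not tested. The pseudogene rows held 0.235% ± 0.029 (SD, n = 3) of gene counts in WT and 0.225% ± 0.013 (SD, n = 3) in KO (two-sided exact permutation test, p = 0.7).

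Paralogs give a cell alternative forms of some ribosomal proteins. Rps27l, an alternative to Rps27, had 263, 188 and 232 CPM in the WT libraries and 318, 204 and 189.7 CPM in the KO libraries. Relative to Rps27 its log2 CPM was -1.61, -2.16 and -1.67 in WT against -1.34, -2.24 and -1.99 in KO, with overlap and a difference of -0.04 (two-sided exact permutation test, p = 0.9). Rpl22l1, the alternative to Rpl22, had 174, 185 and 193 CPM in the WT libraries and 224, 175 and 146 CPM in the KO libraries. Against Rpl22 this was -0.29, -0.10 and -0.22 in WT against 0.16, -0.34 and -0.45 in KO, so KO held both extremes (difference 0.00, two-sided exact permutation test, p = 1.0). Of the 7 paralogs listed 5 were tested and 0 called. Rps4l had 6.48 ± 2.91 CPM (SD, n = 3) in WT and 5.78 ± 0.929 CPM (SD, n = 3) in KO, and Rpl3l, the form of striated muscle, was at most 2.55 CPM in every library.

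**Figure D5:**
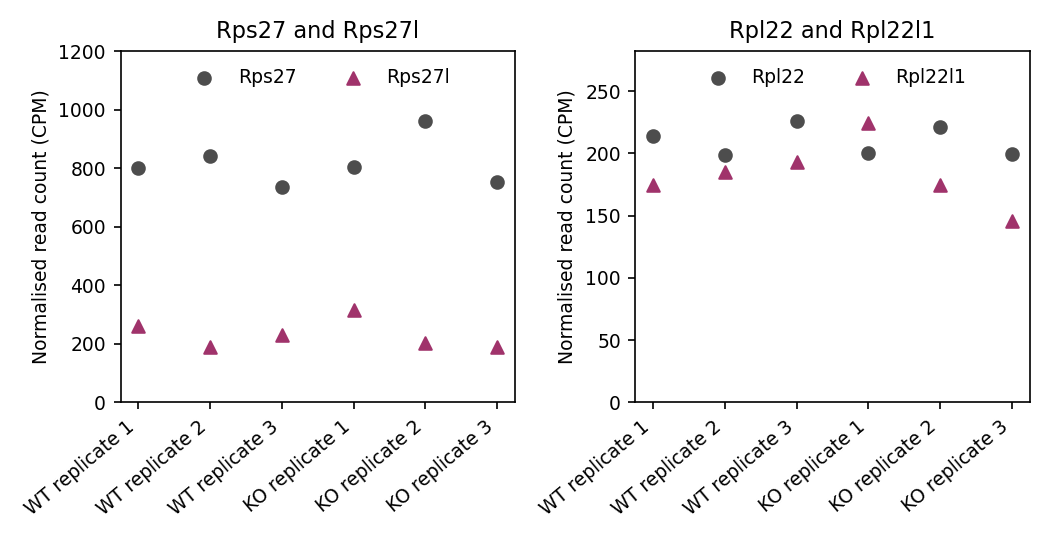
Points give the CPM of Rps27 with its paralog Rps27l (left) and of Rpl22 with Rpl22l1 (right) in each library, on axes from 0. Both paralogs are highest in KO replicate 1, at 318 and 224 CPM, and the other KO libraries lie within or below the WT range.

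Other genes of the pathway were read from listed sets in the same edgeR fit, in which no gene was called. Of the other 37 cytosolic ribosomal protein genes 15 were above 0 and 22 below, with a median log2 fold change of -0.02, and the smallest p belonged to Rpl31 (-0.17 ± 0.15, SE) and Rps21 (0.15 ± 0.13, SE). Chaperones that carry new ribosomal proteins to the nucleolus had 3 above and 6 below and a median of -0.07. Tsr2, the chaperone of Rps26, stood at -0.17 ± 0.15 (SE), and Ltv1, a factor of small-subunit assembly, at -0.17 ± 0.17 (SE). Of 49 ribosome biogenesis genes 12 were above 0 and 37 below, with a median of -0.08 beside 0.01 for all genes. That median depended on single libraries, being 0.0030 with KO replicate 3 left out and -0.18 with KO replicate 1 left out. Ddx21, a helicase of ribosomal RNA synthesis, had 114, 101 and 113 CPM in the WT libraries and 119.6, 66.8 and 78.2 CPM in the KO libraries, so that KO replicate 1 was the highest library of all. Its log2 fold change was -0.31 ± 0.23 (SE), and that of Rrp15, another processing factor, was -0.21 ± 0.17 (SE).

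Translation factors listed as having mRNAs with the same kind of tract had 2 genes above 0 and 14 below, with a median of -0.06. Their tracts were taken from the list and not from the search described above. Eif3e and Eif3k, subunits of an initiation factor, stood at -0.18 ± 0.14 and -0.14 ± 0.12 (SE). Of 13 regulators 10 were above 0, with a median of 0.04, Mdm2 having the smallest p and Rheb, the GTPase that activates mTOR, following at 0.13 ± 0.12 (SE). Larp1, which binds the tracts, had 62.2, 60.2 and 59.0 CPM in the WT libraries and 74.7, 67.8 and 53.4 CPM in the KO libraries, with overlap. Myc, which drives ribosomal genes, had 247, 284 and 209 CPM in the WT libraries and 221, 274 and 254 CPM in the KO libraries, with overlap too.

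The mitochondrial ribosome, whose proteins are encoded by a separate set of nuclear genes, had 78 genes tested, 19 above 0 and 59 below, with a median log2 fold change of -0.08. It held 0.491% to 0.548% of gene counts in WT and 0.461% to 0.558% in KO, and the groups overlapped. Of its 78 genes 4 had every KO library below every WT library and 0 the reverse, where 3.12% and 3.43% of all genes did. Mrpl44 had 33.3, 38.3 and 31.0 CPM in the WT libraries and 29.8, 26.7 and 25.96 CPM in the KO libraries, a log2 fold change of -0.32 ± 0.16 (SE). Mrpl55 followed with 58.4, 56.3 and 62.4 CPM in the WT libraries and 56.0, 46.1 and 43.8 CPM in the KO libraries, a log2 fold change of -0.28 ± 0.15 (SE). Whether the mitochondrial set differs from the cytosolic one was not tested.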

How the data were processed

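For each of the 6 libraries the authors deposited raw counts of reads in genes, not normalized. STAR 2.6.0c, HTSeq 0.6.1p2, cutadapt 2.5, Trim Galore 0.5.0, DESeq2 and edgeR are named with build GRCm38, per the submitters' processing notes. The sources used here do not give the annotation release or whether strand was used in counting. Reads of antisense or overlapping genes therefore cannot be assigned to one of them. The 5 summary rows of each file, holding 11.2% to 17.0% of reads without a feature and 14.8% to 24.6% aligned more than once, were left out. Reads with several alignments were not counted, which lowers members that have processed pseudogenes.

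Symbols, positions and lengths came from GENCODE M21 by gene ID (49399 of 49652 matched). KO was compared with WT in R 4.3.3 with edgeR 4.0.16 (TMM scaling, filter on low counts, robust quasi-likelihood test, no covariate), with p-values adjusted by Benjamini-Hochberg over 18832 genes. DESeq2 1.42.0 and limma 3.58.1 were alternatives. Log2 CPM used a prior count of 2. Values with 1 number per library had two-sided exact permutation tests. Motifs and figures used Python 3.11.15, pandas 2.3.3 and matplotlib 3.10.9. Scripts were tested on simulated data, in which 100 tested genes were changed 2-fold and 100 were changed 4-fold. With each gene's own estimated variability, 5% and 39% of these were called. With the same variability for every gene (dispersion 0.05), 37% and 98% were called. A count of 0 called therefore does not show that no gene changed. The changed genes were drawn at random from all genes tested, so these shares were not measured for the members. The biological coefficient of variation, the relative spread between libraries that edgeR estimates, was 0.153 to 0.201 for the members. Its common value over all genes was 0.524.

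Members and lists were chosen with earlier results of these data known. The rule for named genes took, per subunit, the 3 members highest per coding length and the 3 with the lowest and highest log2 fold changes, then the stalk, Rpl5, Rpl11, Rps6 and Rps4x, and the 2 genes of smallest p in each other list. For the cell cycle list these were Mcm4 (0.39 ± 0.32, SE) and Tk1 (0.95 ± 0.97, SE), with 19 of 24 genes above 0 and 0 called, and for the immediate early list Egr2 (1.76 ± 1.07, SE) and Ier3 (1.42), with 16 of 17 above 0 and 0 called. The cell cycle median of 0.14 rested on single libraries: it was -1.48 with KO replicate 1 left out and -0.21 with the library labelled WT replicate 2 left out.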

Additional observations from a re-analysis of the deposited data

How the results depend on the processing

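Under RLE or no scaling, no low-count filter, protein-coding nuclear genes alone, DESeq2, limma voom, the replicate block and with each library left out in turn, 0 of 42 members were called, and none had an unadjusted p under 0.05. The member median kept its sign except without WT replicate 1 and without KO replicate 3, ranging from -0.08 to 0.02 with a library left out. The difference in share ranged from -0.209 to 0.0078 points, and that in balance from -0.04 to 0.00. Of the members named by the rule, Rpl13 changed sign without the low-count filter (-0.013). Over all 42, the members above 0 numbered 14 in the main fit and 9 without that filter. They numbered 12 with protein-coding nuclear genes alone and 13 under RLE scaling and DESeq2. With a library left out, 30 of 42 members changed sign, 10 of them named by the rule, whose log2 fold changes ranged from -0.14 to 0.042 for Rpl11, -0.056 to 0.10 for Rpl13, -0.34 to 0.0023 for Rpl27, -0.11 to 0.014 for Rpl32, -0.050 to 0.21 for Rpl38, -0.064 to 0.14 for Rpl5, -0.046 to 0.15 for Rps27, -0.090 to 0.039 for Rps4x, -0.025 to 0.12 for Rps6 and -0.20 to 0.0053 for Rps9. The cause was not tested. With a library left out, list medians that changed sign ranged from -0.07 to 0.06 (other ribosomal proteins), -0.21 to 0.05 (paralogs), -0.20 to 0.0098 (chaperones), -0.18 to 0.0030 (biogenesis) and -1.48 to 0.60 (cell cycle). Those that did not ranged from 0.056 to 0.11 (regulators), -0.13 to -0.03 (translation factors), 0.30 to 1.41 (immediate early) and -0.19 to -0.04 (mitochondrial ribosome). With every library kept, the regulators' median was 0.04, below its range with a library left out.

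WT and KO libraries share replicate numbers, but same-numbered libraries did not all deviate together (r across genes 0.24, 0.11 and -0.07), and the labels give no shared source, so the numbers were not taken as pairs. Over the 42 members alone r was 0.54, 0.56 and 0.64 for the same-numbered libraries, where the other combinations reached at most 0.07. Deviations were taken from each group's mean, so the combinations are not independent. This r describes the order of members and not their level. The members' mean deviation from their means over the 6 libraries was 0.09 and 0.07 in WT and KO replicate 1. It was -0.07 and 0.03 in the libraries labelled WT and KO replicate 2, and 0.03 and -0.14 in WT and KO replicate 3. With the replicate block 0 genes were called and 515 had an unadjusted p under 0.05 by edgeR, against 393 without it; the member median was -0.03, the share had p = 0.75 and the balance p = 0.25 by exact permutation within pairs, where 0.25 is the smallest p that 3 pairs allow. Each member had at least 5249 counts per library, and the effect of depth was not tested.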
